A study of Xenopus laevis with 4 samples.

Results

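The transcripts described here encode the pre-mRNA splicing machinery of the Xenopus laevis gastrula: the proteins of the spliceosome, the SR proteins and the heterogeneous nuclear ribonucleoproteins (hnRNPs). They were taken as every array probe set that the platform annotation assigns to 1 gene with a symbol beginning with srsf, sf3a, sf3b, snrp, hnrnp, prpf, u2af, lsm, sf1, tra2 or ptbp, and with a mean signal of at least 100 over the 4 arrays. A probe set is the group of short probes that reports 1 transcript. Of 127 probe sets for 86 such genes, 122 probe sets for 84 genes reached that signal, out of 6180 single-gene probe sets for 5201 genes in the whole series. The 5 left out were single probe sets of hnrnpa2b1.L, srsf1.L, prpf3.S, sf3b4.S and ptbp3.S, with mean signals of 98.6, 88.7, 87.4, 45.7 and 32.1. The dimmest members kept were probe sets of hnrnpa3.L, lsm4.S and snrpa1.S, with mean signals of 163, 166 and 171. The endings .L and .S mark the 2 homeologous copies that many genes of this allotetraploid frog have, and transcripts of such copies can cross-hybridise.

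Whole embryos were injected radially at the 4-cell stage and collected at stage 12, in gastrulation. The control group received 80 ng of a control morpholino, and the other group received 40 ng of each of 2 xSGK1 morpholinos, directed against the Xenopus form of the kinase SGK1. Morpholinos are antisense oligonucleotides that block translation or splicing of their target, so the level of a target transcript need not change. The experiment was done in 2 independent rounds with 1 array for each injection (n = 2 per group), and this number of arrays limits the precision. The number of embryos per array is not given in the sources used here. In whole embryos, fewer cells of a type and less RNA per cell cannot be told apart. The array reports how much transcript is present and not how it was spliced.

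Splicing removes introns in a fixed order of steps. The U1 small nuclear ribonucleoprotein (snRNP) binds the 5' splice site, SF1 and the U2AF proteins recognise the branch point and the 3' splice site, and the U2 snRNP with its SF3a and SF3b proteins then takes the branch point; the U4, U5 and U6 snRNPs join afterwards. SR proteins generally favour the use of nearby splice sites, while many hnRNPs coat the nascent transcript and oppose them. The early embryo depends on these proteins when its own genome is switched on at the midblastula transition, before which it lives on maternal transcripts.

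Most splicing transcripts differed little between injections. The log2 change (signal + 16, xSGK1 minus control morpholino, the scale of every change below) had a median of -0.06 over the 122 probe sets, with an interquartile range of -0.21 to 0.04, against a median of 0.04 and a range of -0.21 to 0.28 over all 9251 tested probe sets. Past 0.5 in size were 6 members (4.92%), where 21.6% of all tested probe sets were, and 1 (0.82%) was past 1, where 4.33% were. Where the mean signal reached 1000, 2 of 90 members (2.22%) were past 0.5 in size, against 11.8% of all 2721 of that signal, and 3 (3.33%) were called by the blocked fit described next, against 7.39%. By limma with the experiment as a block, 4 members fell and 0 rose at an adjusted p of 0.05 (3.28% of members), while that test called 8% of all tested probe sets, 3.91% as falls and 4.09% as rises. Limma without the block called 0 members and 0% of all tested probe sets. It was the main fit of the plan made here. The labels state no test, and this fit leaves the difference between the experiments in its error. At an unadjusted p under 0.05 that fit held 4 members, the same 4, and 3.61% of all tested probe sets, and the blocked fit held 15 members (12.3%) and 30.2% of all tested probe sets. "Fell" and "rose" below refer to the blocked fit, whose p-values rest on how alike the 2 experiments were. Each ± SE below is the moderated standard error of that fit. Its variance is drawn towards the trend over all tested probe sets, so it is not the spread of the 2 experiments alone. With groups of 2 the smallest p that an exact permutation test allows is 0.333 if arrays are permuted without regard to the experiment. Permutation within the experiments, as the block would ask, has fewer arrangements and was not computed.

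**Figure D1:**
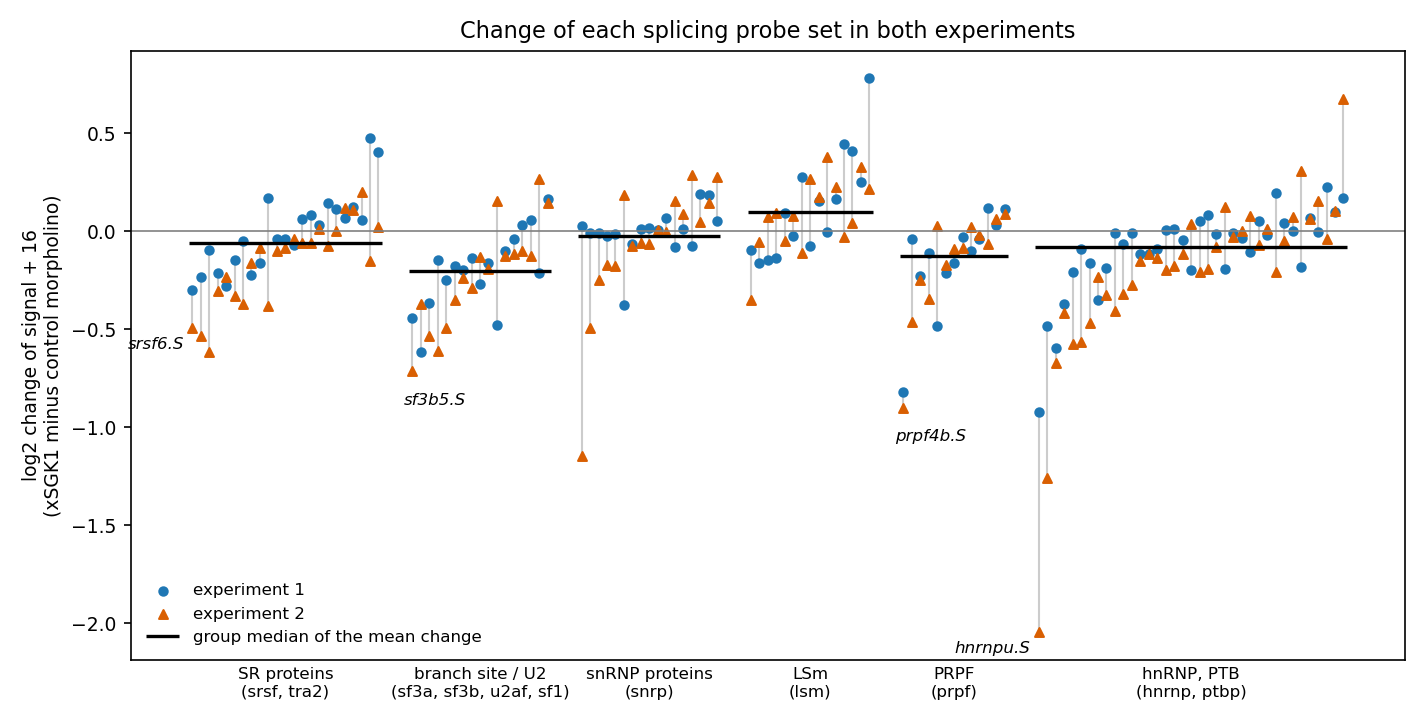
Log2 change of signal + 16 (xSGK1 minus control morpholino) of each of the 122 splicing probe sets, ordered within 6 groups by the mean of the experiments; circles are experiment 1, triangles experiment 2, and black bars the group medians. Named probe sets are the 4 that fell by limma with the experiment as a block; the median of the branch site group lies at -0.20 and that of the LSm group at 0.10.

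The small shift that was seen pointed down. In both experiments 57 members (46.7%) were lower with the xSGK1 morpholinos, against 31.9% of all tested probe sets, and 23 (18.9%) were higher in both, against 40.8%. Both xSGK1 arrays lay below both controls for 23 members (18.9%, against 13.8% of all) and above both for 4 (3.28%, against 16.3%). Those 4 were lsm14a.S, lsm14b.S and 2 probe sets of srsf5.S. Where the mean signal reached 1000, 47.8% of members were lower in both experiments against 38.2% of all tested probe sets of that signal, and 18.9% were higher in both against 34.8%. At that signal both xSGK1 arrays lay below both controls for 18.9% of members against 16.8%, and above both for 3.33% against 12.7%, and the median was -0.05 against -0.01. The median over the members was -0.04 in experiment 1 and -0.08 in experiment 2. Members share cells, arrays and in part sequence, so these shares carry no test. The shift was smaller with other scalings of the arrays, since the median was -0.03 after quantile and -0.02 after cyclic loess normalization. It turned to 0.08 without the xSGK1 array of experiment 2 and to 0.02 without the control array of experiment 1. With 1 array left out the experiments are uneven between the groups, so part of the experiment difference given below enters these medians.

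Single markers of embryonic cell types also differed between the injections. Among the 16 gastrula marker probe sets whose mean signal reached 100, 5 were lower and 5 higher with the xSGK1 morpholinos in both experiments. Of all tested probe sets, 31.9% were lower and 40.8% higher in both, so these counts do not set the markers apart. The epidermal keratin gene krt12.4.L gave 3922 and 974 in controls and 1402 and 75.4 in xSGK1 arrays, and krt12.4.S gave 2173 and 541 against 713 and 59.5. The mesendoderm transcription factor gene mixer.L gave 167 and 294 in controls against 328 and 432, mixer.S 309 and 713 against 574 and 1024, and eomes.L 1292 and 2118 against 1673 and 2785. Keratin signal was thus lower within each experiment, and that of mixer and eomes.L higher. Both vegt copies were also higher in both experiments. Other markers of that signal were lower in both. The signal of sox17a.L was 587 and 494 in controls against 530 and 451. That of sox17a.S was 551 and 670 against 537 and 550, and that of gsc.S 157 and 161 against 117 and 82.6. The signal summed over all 20 marker probe sets was 20188 and 20825 in controls and 20460 and 18995 in xSGK1 arrays. The part of these differences in the shift of the splicing transcripts was not tested.

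**Figure D2:**
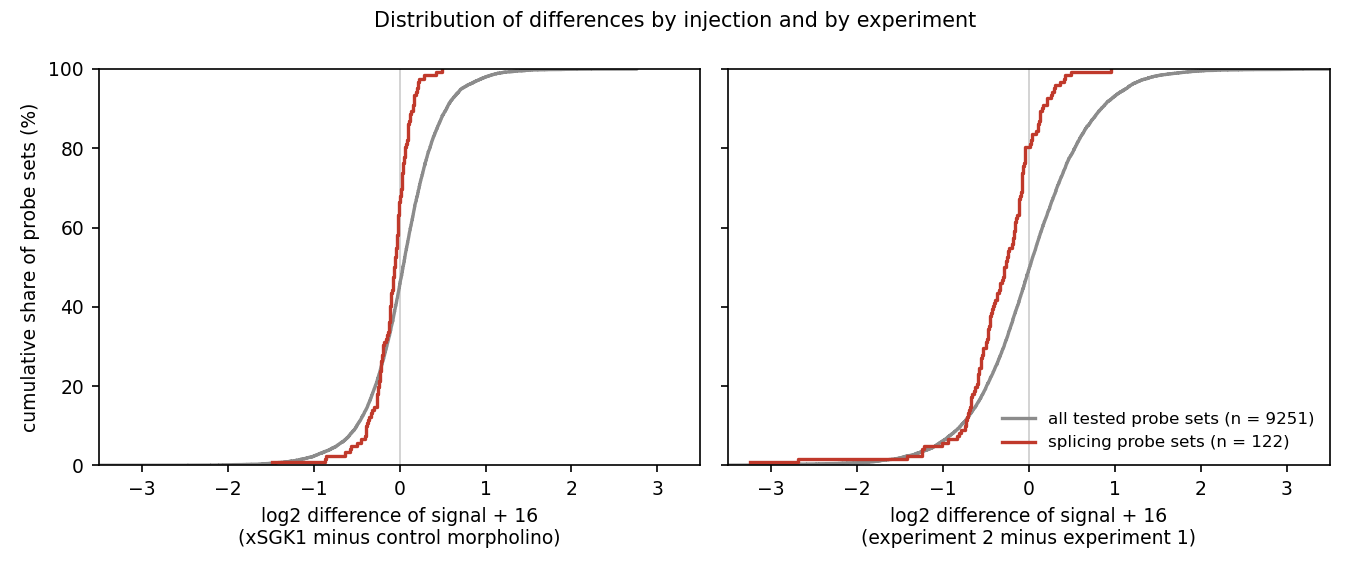
Cumulative share of probe sets (percent) against the log2 difference by injection (left) and by experiment (right), for the 122 splicing probe sets (red) and all 9251 tested probe sets (grey); the axis is drawn from -3.5 to 3.5. The red curve is steeper than the grey one in the left panel. In the right panel it runs to the left of the grey one above its lowest tail, with medians of -0.28 and 0.01.

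The proteins that find the branch point and the 3' splice site had the lowest group median. Their 17 probe sets, for 13 genes, had a median of -0.20, and 12 of them were lower in both experiments while 1, u2af1.S, was higher in both. The median stayed below 0 with each array left out in turn, from -0.39 to -0.08, but without the xSGK1 array of experiment 1 the hnRNP (-0.30) and PRPF (-0.28) medians lay below that of this group (-0.27). It was -0.18 after quantile and -0.19 after cyclic loess normalization. Of the group 1 probe set fell (5.88%, against 3.91% of all tested probe sets) and 0 rose. This was sf3b5.S, which encodes a small subunit of SF3b. Its signal was 4295 and 3991 in controls 1 and 2, and 3156 and 2426 in xSGK1 arrays 1 and 2. Both xSGK1 values lay below both controls, and the log2 change was -0.58 ± 0.11 SE (adjusted p = 0.0363 by limma with the block, 0.999 in the fit without). That call was lost after quantile normalization and without the intensity trend of the variance model, where the adjusted p reached 0.0907.

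The other SF3b probe sets did not pass, and all but 1 of sf3b1.S were lower on average. The signal of sf3b3.L, a large scaffold subunit, was 3913 and 3496 in controls and 3290 and 2479 in xSGK1 arrays, with no overlap of the groups (log2 change -0.37, adjusted p = 0.0911 with the block). That of sf3b4.S, a subunit with RNA recognition motifs, was 1385 and 977 in controls against 1070 and 669. Here the groups overlapped, since the control of experiment 2 lay below the xSGK1 array of experiment 1 (log2 change -0.45, adjusted p = 0.0952). Its homeolog sf3b4.L changed by -0.03. The subunit that contacts the branch point adenosine, sf3b6.S, gave 301 and 147 in controls and 191 and 110 in xSGK1 arrays (log2 change -0.49, adjusted p = 0.141). The 2 probe sets of sf3b2.L stood at -0.38 and -0.26. The brightest of 3 probe sets of sf3b1.S, the subunit that clamps the branch helix, stood at -0.21, the others at -0.16 and 0.03. Over the 10 probe sets with an sf3b symbol the median was -0.32, with 7 lower in both experiments and 0 higher in both. Of all tested probe sets, 31.9% were lower and 40.8% higher in both. The sf3b subset is a part of the branch site group and was not a group of the plan. Genes under other symbols are not counted in that subset. Among them is phf5a.L of the further list below, at -0.06 in Xl.7202.1.S1_at and -0.15 in Xl.8044.1.S1_at.

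Of the SF3a subunits, sf3a1.L changed by -0.22, sf3a2.S by -0.03 and sf3a3.S by -0.08. The branch point binding protein gene sf1.S changed by -0.11. The large U2AF subunit, which binds the polypyrimidine tract, was read by 2 probe sets of u2af2.S at -0.20 and -0.18. The small subunit gene u2af1.S, whose product reads the AG at the intron's end, gave 3014 and 1865 in controls and 3383 and 2067 in xSGK1 arrays. It was higher within each experiment, the groups overlapped across experiments, and it did not pass (log2 change 0.16, adjusted p = 0.367).

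SR protein genes had 1 member that fell among 23 probe sets for 17 genes (4.35%, against 3.91% of all tested probe sets). Their median was -0.06, which became -0.01 after cyclic loess normalization and 0.00 after quantile normalization. The gene that fell was srsf6.S, a splicing activator with a long arginine-serine domain. It measured 7604 and 9153 in controls, and 6184 and 6488 in xSGK1 arrays. Both controls lay above both xSGK1 arrays (log2 change -0.40 ± 0.09 SE, adjusted p = 0.0492 by limma with the block, 0.999 in the fit without). The call sat at the threshold, and in 3 of 9 settings of the blocked fit it was lost, with an adjusted p of up to 0.157. The 9 include the blocked fit itself and a setting that only drops cross-hybridising probe sets from the members, so both give the same p-values. Its homeolog srsf6.L stood at 5099 and 4104 in controls and 4925 and 3171 in xSGK1 arrays, with overlapping groups (-0.21, adjusted p = 0.261).

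Other SR genes whose xSGK1 arrays both lay below the controls were srsf1.L, a founding member of the family, at -0.19 and -0.26 in its 2 probe sets, and srsf3.S, the smallest SR protein, at -0.26 (7572 and 7187 in controls, 6236 and 6105 in xSGK1 arrays, adjusted p = 0.0977). The 2 probe sets of srsf2.L gave -0.07 and -0.38. All 3 probe sets of srsf5.S were slightly higher in both experiments, at 0.02, 0.06 and 0.12, and the last of these, Xl.5499.1.S1_a_at, was called as a rise by the blocked fit after cyclic loess normalization only. For tra2a, an SR-like activator of exon inclusion, the L copy gave -0.36 and, without overlap, -0.24, and the S copy 0.21. The S copy measured 1921 and 1326 in controls and 2551 and 1346 in xSGK1 arrays, so that its difference came from experiment 1. The related tra2b.S changed by -0.06. The value of srsf7.L, 0.16, joined changes of 0.47 and -0.15 in the 2 experiments. The remaining SR genes, srsf5a, srsf7.S, srsf9.S, srsf10.S, srsf11.L and srsf12.L, lay between -0.12 and 0.13.

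The snRNP proteins had the group median nearest to 0 before further normalization. Their 17 probe sets, for 12 genes, had a median of -0.02 and 0 passed in either direction; after quantile and cyclic loess normalization the median was 0.04 and 0.03, and the SR and hnRNP medians were then nearer to 0. These genes encode the Sm proteins, which form a ring on the snRNAs, and the proteins specific to U1 and U2. The Sm gene snrpb.S measured 10817 and 9930 in controls, and 10964 and 9492 in xSGK1 arrays, which overlapped (log2 change -0.02). The Sm genes snrpd1.L, snrpd3.L, snrpd3.S and snrpf.S lay between -0.13 and 0.12. The lowest Sm gene, snrpg.S, gave 2944 and 2006 in controls and 2930 and 1422 in xSGK1 arrays, a difference seen in experiment 2 and not in experiment 1 (-0.25, adjusted p = 0.303). The second copy of snrpb also stood at -0.02, and 3 probe sets of the U2 protein gene snrpb2 at 0.17, 0.01 and 0.11. The U1 protein genes snrpa.S and snrpc.S changed by 0.04 and -0.07. Of the U2 protein gene snrpa1.S 3 probe sets stood at 0.17, 0.05 and 0.03. The other one, Xl.23786.3.A1_at, gave 188 and 214 in controls and 192 and 87.9 in xSGK1 arrays, so that 1 array set its change of -0.56 (adjusted p = 0.26).

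The LSm genes had a group median above 0, alone among the groups before any further normalization. Their 15 probe sets, for 11 genes, had a median of 0.10 (0.10 after either other normalization), 11 were higher on average, and 0 passed. Without the xSGK1 array of experiment 1 the median was -0.05, a value that the experiment difference also enters. The proteins LSm2 to LSm8 form the ring of the U6 snRNA, and LSm2 to LSm7 also take part in cytoplasmic mRNA decay in a variant ring. The 11 probe sets of lsm2 to lsm8 had a median of 0.08, from -0.22 for lsm5.L to 0.23 for 1 of 3 probe sets of lsm8.S. Of the 11, 7 changed sign between the experiments. The 4 probe sets of lsm12 and lsm14 genes, which are not spliceosome proteins, had a median of 0.24. LSm14 proteins are components of translationally repressed mRNPs, known in Xenopus oocytes as RAP55. The signal of lsm14b.S was 233 and 313 in controls, and 412 and 367 in xSGK1 arrays, without overlap (log2 change 0.50, adjusted p = 0.157). That of lsm14b.L was 473 and 904 in controls, and 565 and 1141 in xSGK1 arrays, higher within each experiment (0.29, adjusted p = 0.23). The signal of lsm14a.S was 1292 and 1166 in controls, and 1454 and 1369 in xSGK1 arrays, again without overlap (0.20, adjusted p = 0.335).

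Among the PRPF genes, which encode proteins of the U4/U6 and U5 snRNPs and of the catalytic steps, 1 of 13 probe sets fell. That share was 7.69%, against 3.91% of all tested probe sets. The probe set that fell was that of prpf4b.S, a kinase that phosphorylates tri-snRNP proteins. The signal was 1555 and 1426 in controls, and 875 and 757 in xSGK1 arrays. This is 0.562-fold in experiment 1 and 0.531-fold in experiment 2, with no overlap (log2 change -0.86 ± 0.13 SE, adjusted p = 0.0264 by limma with the block, 0.999 in the fit without). It was called in all 9 settings of the blocked fit that were run, that fit itself among them, with an adjusted p of at most 0.0414. The homeolog prpf4b.L did not pass. Its probe set Xl.10066.1.A1_at gave 1042 and 1307 in controls and 1014 and 944 in xSGK1 arrays (-0.25, adjusted p = 0.327), and Xl.10118.1.S1_at gave 352 and 137 against 248 and 141 (-0.23, adjusted p = 0.486).

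The PRPF group as a whole had a median of -0.13 over 10 genes, -0.10 after quantile and -0.12 after cyclic loess normalization. The U5 protein gene prpf8.S, which encodes the core of the catalytic centre, gave 2388 and 2158 in controls and 2038 and 1815 in xSGK1 arrays. The groups did not overlap, and the change of -0.24 did not pass (adjusted p = 0.215). The ubiquitin ligase gene prpf19.L stood at -0.06 and -0.19 in its 2 probe sets, prpf18.L at -0.13 and prpf38a.S at 0.03. The tri-snRNP genes prpf3.S, prpf31.S, prpf4.L and prpf6.L lay between -0.23 and 0.10.

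**Figure D3:**
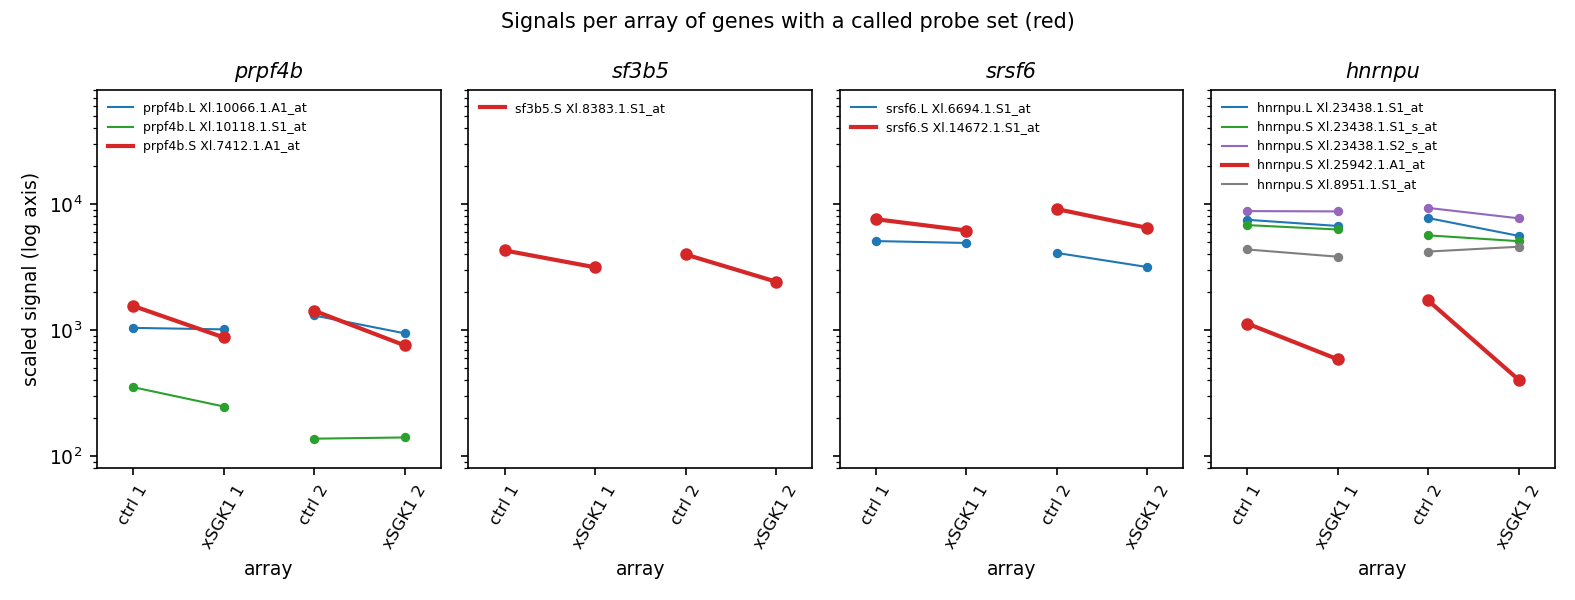
Scaled signal (log axis) on each of the 4 arrays for all probe sets of prpf4b, sf3b5, srsf6 and hnrnpu past the signal filter; lines join the control and xSGK1 arrays of 1 experiment, and red marks the probe set that fell. Heights of different probe sets are not comparable; the red lines fall in both experiments, and those of the other probe sets are flatter.

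The hnRNP and PTB genes were the most numerous group, with 37 probe sets for 21 genes. Their median was -0.08 (-0.03 after quantile and -0.02 after cyclic loess normalization). They had 1 fall (2.70%, against 3.91% of all tested probe sets) and 0 rises. The probe set that fell was 1 of 4 for hnrnpu.S, whose product is also called scaffold attachment factor A and binds RNA and chromatin. This probe set, Xl.25942.1.A1_at, measured 1129 and 1722 in controls, and 587 and 404 in xSGK1 arrays. The groups did not overlap, and the change was larger in experiment 2 (-2.05) than in experiment 1 (-0.92). The mean was -1.49, with a moderated SE of 0.27 by limma with the block (adjusted p = 0.0317) and 0.35 without (adjusted p = 0.999). The other 3 probe sets of the gene lay between -0.14 and -0.03. They were brighter, with mean signals of 5970, 8668 and 4251 against 961 for the one that fell. Of these, Xl.8951.1.S1_at differed in sign between the experiments (-0.19 and 0.13). The call was lost in 1 of 9 settings, without the intensity trend (adjusted p = 0.057). The single probe set of the homeolog hnrnpu.L gave 7525 and 7770 in controls, and 6721 and 5610 in xSGK1 arrays, without overlap (-0.32, adjusted p = 0.102).

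In the same group hnrnpr.S, whose product is related to the mRNA-binding protein SYNCRIP, was lower in both experiments in all 4 probe sets, at -0.87, -0.39, -0.29 and -0.19. The first of them, Xl.22052.1.A1_at, gave 351 and 258 in controls and 246 and 98.5 in xSGK1 arrays, without overlap (adjusted p = 0.0721). The gene syncrip.S itself, from the further list below, measured 4279 and 3968 in controls and 5077 and 4937 in xSGK1 arrays. It was higher without overlap (0.28, adjusted p = 0.106 by limma with the block). Both hnrnpa3 copies were lower without overlap. The signal of hnrnpa3.L was 190 and 215 in controls and 120 and 129 in xSGK1 arrays (-0.63, adjusted p = 0.0829), and hnrnpa3.S changed by -0.26. The 7 probe sets of hnrnpa1, the classical A-type hnRNP, lay between -0.09 and 0.10. Those of hnrnpc, a component of the core hnRNP particle, were at 0.00 for the L and -0.02 for the S copy. The highest probe set of this group was that of hnrnph1.L at 0.42, with 1079 and 588 in controls and 1218 and 949 in xSGK1 arrays, which overlapped (adjusted p = 0.16). Of the genes whose products bind the localised Vg1 transcript in Xenopus oocytes, hnrnpab.L changed by -0.11, and ptbp1, also known as hnRNP I, by -0.33 in ptbp1.S and by -0.39 and 0.06 in the 2 probe sets of ptbp1.L. The remaining hnRNP genes, hnrnpa0, hnrnpd.L, hnrnpdl, hnrnph3.L, hnrnpk.S and hnrnpm.L, lay between -0.21 and 0.10. None of these passed.

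Several genes were read by more than 1 probe set, which share a target and are not replicates. For 24 genes with 62 probe sets, the probe sets of a gene lay within a median range of 0.13 of each other in their change by injection. The range was under 0.25 for 19 genes and over 0.5 for 3, which were hnrnpu.S, snrpa1.S and hnrnpr.S. All probe sets had 1 sign in 13 genes and differed in sign in 11. Only for hnrnpu.S was 1 probe set called, and none of the other 23 genes had a call. Probe sets with the ending _x_at, _s_at or _a_at, which may detect related transcripts or several variants, made up 26 of the 122. Leaving them out of the members gave a median of -0.09 over the remaining 96. None of the 4 called probe sets has such an ending and the fit was unchanged, so their calls could not differ. Between homeologs, the brightest probe sets of the L and S copies had the same sign in 15 of 17 genes and lay within 0.25 of each other in 13. The exceptions in sign were hnrnpa0 and tra2a, and the largest difference between copies, 0.61, was that of prpf4b. Some shared signs rest on values close to 0, such as -0.001 for hnrnpc.L and -0.004 for hnrnpa1.L. The pairs of hnrnpa1 and hnrnpu include probe sets with the ending _x_at or _s_at, which may read both copies. The same shares over other genes were not computed.

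**Figure D4:**
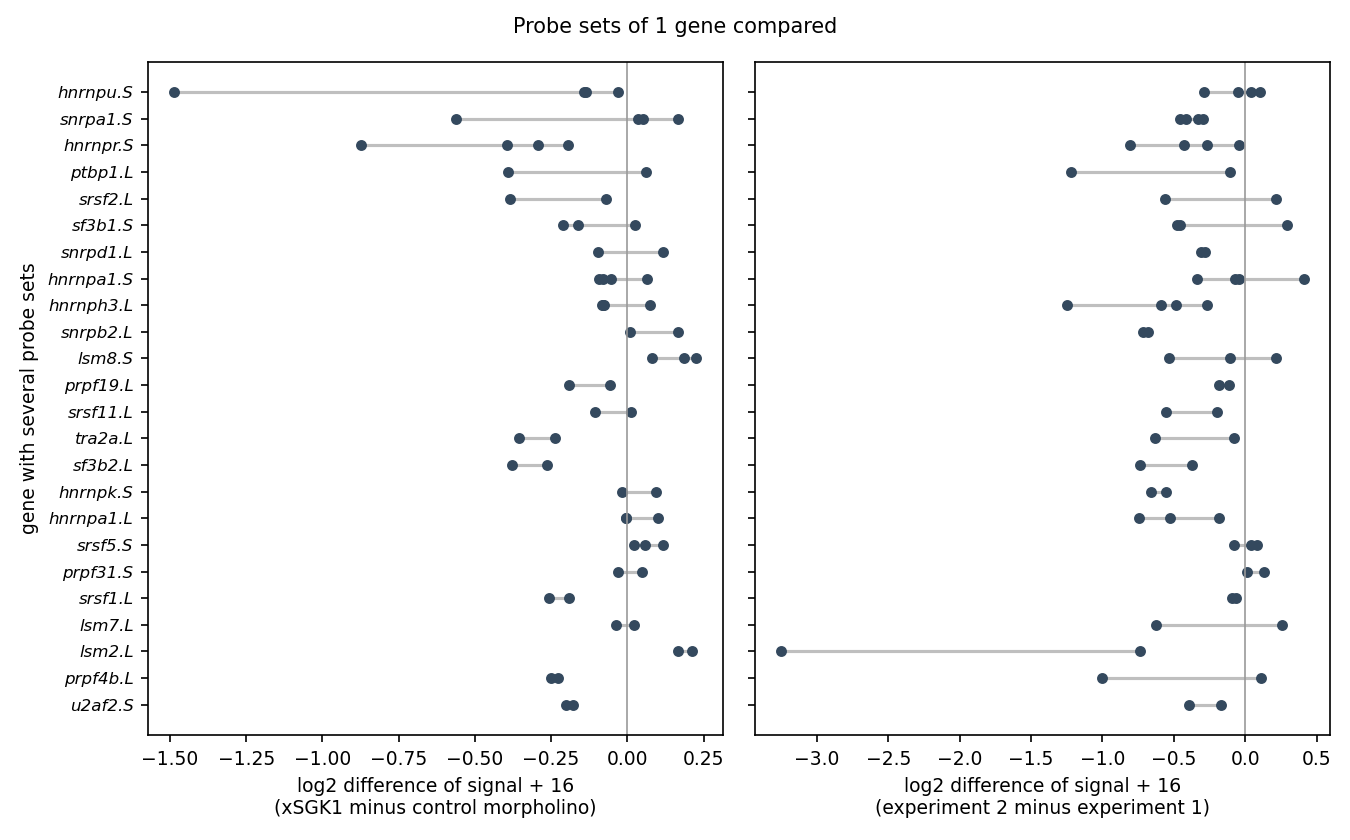
Log2 difference by injection (left) and by experiment (right) for each probe set (point) of the 24 genes with several probe sets, ordered by their range on the left; grey lines span the probe sets of 1 gene. On the left hnrnpu.S, snrpa1.S and hnrnpr.S span over 0.5; on the right lsm2.L spans 2.51.

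The experiments differed more than the injections did. Experiment 2 was lower than experiment 1 by a median of -0.28 over the 122 members, against 0.01 over all tested probe sets. In it 98 members (80.3%) were lower, against 49.4% of all tested probe sets. By limma with the injection as a block, 52 members were lower in experiment 2 (42.6%, against 19.9% of all tested probe sets) and 5 were higher (4.10%, against 20.9%). The 5 were lsm14b.L, prpf6.L, sf1.S, sf3b1.S and srsf2.L, each by 1 probe set. All 17 snRNP probe sets were lower, with a median of -0.41, and the hnRNP group had 20 of 37 called as lower and 0 as higher. The SR and PRPF groups had medians of -0.09 and -0.11, and the branch site and LSm groups -0.37 and -0.12. None of the 4 probe sets that fell with the xSGK1 morpholinos was called between the experiments. Of all tested probe sets 40.8% were called between them. Of the 740 called by injection over all tested probe sets, 435 were also called between the experiments in the same direction. The 4 that fell differed by 0.04 (hnrnpu.S), 0.17 (srsf6.S), -0.16 (prpf4b.S) and -0.24 (sf3b5.S). The value of hnrnpu.S averaged opposite differences, 0.60 between the controls and -0.52 between the xSGK1 arrays.

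Single members stood far apart between experiments with both injections. The probe set Xl.5214.1.S1_at of lsm2.L gave 1875 and 2563 in the control and xSGK1 arrays of experiment 1, and 218 and 214 in those of experiment 2 (-3.25, adjusted p = 0.00146). The other lsm2.L probe set, Xl.24167.1.S1_at, gave 515 and 575, and 300.3 and 341 (-0.74, adjusted p = 0.0144). The signal of hnrnpa0.S was 8843 and 8757 in experiment 1, and 1388 and 1313 in experiment 2 (-2.69, adjusted p = 0.000675), whereas its homeolog hnrnpa0.L differed by -0.50. The signal of lsm6.S went from 1677 and 1525 to 571 and 611 (-1.41, adjusted p = 0.00306). Probe sets of hnrnph3.L, srsf5a.L, ptbp1.L and prpf4b.L also differed by at least 1 in size. In all, 7 members (5.74%) were at least 2-fold lower in experiment 2, against 6.16% of all tested probe sets, and 0 were at least 2-fold higher, against 6.81%. For beta-actin, the signal of the 3' control probe set over the 5' one, a sign of RNA length, was 3.11 and 3.38 in experiment 1 and 2.24 and 2.06 in experiment 2, for control and xSGK1 arrays in turn. For GAPDH the same ratio was 16.6 and 17.7 in experiment 1 and 16.4 and 15.6 in experiment 2. Their part in these differences was not tested.

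**Figure D5:**
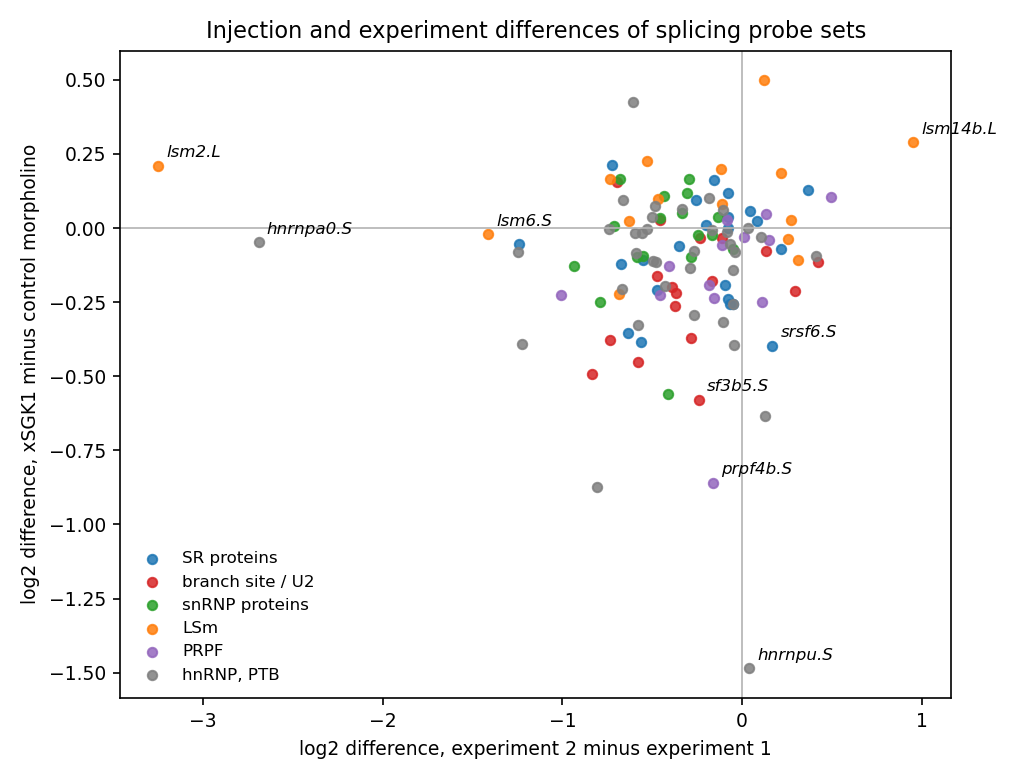
Log2 difference by injection (vertical) against log2 difference by experiment (horizontal) for the 122 splicing probe sets, coloured by group; both use the same 4 arrays. The called probe sets of hnrnpu.S, prpf4b.S, sf3b5.S and srsf6.S lie low and near 0 on the horizontal axis. The horizontal value of hnrnpu.S is the mean of 0.60 in controls and -0.52 in xSGK1 arrays. Probe sets of lsm2.L (-3.25) and hnrnpa0.S (-2.69) lie far left and near 0 on the vertical axis.

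A further list of 126 probe sets for 100 genes held other spliceosome, exon junction, splicing kinase, SMN complex and mRNA-binding genes. Its median was -0.06, and with the block 2 probe sets rose and 1 fell (2.38%, against 8% of all tested probe sets), while 0 were called without the block. The U1-associated factor gene luc7l2.S fell from 866 and 762 in controls to 402 and 314 in xSGK1 arrays (-1.16 ± 0.15 SE, limma adjusted p = 0.0232 with the block). A probe set of each copy of cirbp, the gene of a cold-inducible RNA-binding protein, rose. That of cirbp.L gave 1269 and 1552 in controls and 2125 and 2359 in xSGK1 arrays (0.67, adjusted p = 0.0317 with the block), and that of cirbp.S 1899 and 2739 against 3490 and 3813 (0.67, adjusted p = 0.0363). Both calls were lost in 1 of 9 settings of the blocked fit, without the intensity trend, at an adjusted p of 0.0638 for cirbp.L and 0.0807 for cirbp.S. A second probe set of each copy did not pass, at -0.07 for cirbp.L and -0.24 for cirbp.S, the latter without overlap. These were the brighter ones. Their mean signals were 12844 for cirbp.L and 10667 for cirbp.S, against 1826 and 2985 for the probe sets that rose. In this list too, experiment 2 was lower than experiment 1, with a median of -0.19.

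Arrays had been scaled before deposit, to a 2% trimmed mean of 500.05 to 500.06, and the median signal was 161 to 174. As a check of the label, 16 of 20 probe sets for 11 measured gastrula marker genes had a mean signal of at least 100, among them tbxt.S and vegt.L, and 0 of 11 probe sets for 6 genes of differentiated tissue did. The summed signal of the latter was 96.4 to 159.8 per array.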

How the data were processed

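Per the labels' protocols, 100 ng of total RNA per array went through 2 labelling cycles onto the 1-colour Affymetrix Xenopus laevis array. The authors deposited signal intensities on a linear scale. The submitters' processing notes name MAS5 and GCOS, the latter as version 1.4 in the series text. Here each array was brought to a trimmed mean (2%) of 500, 16 was added and log2 was taken. Tests covered 9251 probe sets, without the 120 controls and without any under a mean signal of 100. All 122 members matched RefSeq (assembly Xenopus_laevis_v10.1) by gene identifier, with 0 symbols changed. No coordinates are given, since no build is named for the array.

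The tests used limma 3.58.1 under R 4.3.3 (two-sided, intensity trend), with Benjamini-Hochberg adjustment over all 9251 probe sets. Replicate numbers were taken to mark the experiment, because the series text describes 2 experiments that each held both injections. The differences between experiments in the 2 groups correlated (Pearson 0.838). The main fit has no block, and the blocked fit is given beside it. Separate clutches are not stated in the sources used here, so the spread between arrays may be partly technical. Scripts were tested on simulated data. Members and lists were chosen with earlier results of these data known. Named probe sets were those called in either fit, all probe sets of their genes and homeologs, and per group the 2 largest rises and falls and the 2 brightest. Of other splicing genes, those called were named. Members named outside this rule were chosen after their values were seen. Alternatives were other offsets, filters, normalizations and variance models, cross-hybridising probe sets left out of the members but not of the fit, the brightest probe set per gene, the block, and each array left out. Figures were drawn with matplotlib 3.10.9.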

Additional observations from a re-analysis of the deposited data

How the results depend on the processing

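With 2 arrays per group the calls depend on the model: the fit without the block called 0 of 9251 probe sets, 0 members and 0 of the other splicing list, and the fit with the replicate block called 740, 4 and 3. A blocked fit with 1 array left out has no residual degrees of freedom and was not run. Without the block and with 1 array left out, where the lone array is assumed to vary like the others, 0 to 110 probe sets and 0 to 1 members were called. The member called was hnrnpa0.S, as a fall without the xSGK1 array of experiment 1 and as a rise without that of experiment 2. The median of the members then ran from -0.242 to 0.0818, that of the SR group from -0.243 to 0.0922, branch site -0.393 to -0.0796, snRNP -0.197 to 0.236, LSm -0.0495 to 0.272, PRPF -0.276 to -0.0412 and hnRNP -0.302 to 0.109.

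The member median was -0.0183 after cyclic loess normalization. After quantile normalization the group medians were 0 (SR), -0.182 (branch site), 0.0382 (snRNP) and -0.0967 (PRPF), and after cyclic loess -0.0115, -0.186, 0.032 and -0.116. Other medians that moved by more than the spread between the experiments were PRPF without a signal filter (-0.154), snRNP with a mean signal of at least 300 (-0.00727), LSm without cross-hybridising suffixes (0.131), and, with the brightest probe set per gene, snRNP (-0.0464), LSm (0.0826) and PRPF (-0.0922). The cause was not tested.

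Combinations of the block with other settings were chosen after seeing the data. The members called were 2 with quantile normalization, 8 with cyclic loess (1 of them a rise) and 1, prpf4b.S, without the intensity trend. All probe sets called were 1136 with an offset of 64, 490 with a mean signal of at least 300 and 1561 with cyclic loess. The share of members called was below that of all tested probe sets in each of the 9 settings. These include the blocked fit itself and 1 setting that changed only the member list. Of 569 values of 45 named probe sets under the alternatives (other than these combinations) 562 kept their side of the threshold and 7 passed only with the block. A change of sign was counted as a reversal only where a fit called the probe set, and 0 were counted. Since the fit without the block called none of the named probe sets, these counts do not show whether signs held.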
